A study of Mus musculus with 16 samples.

Results

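The keratinocyte chemokines are the genes with the symbols *Ccl2*, *Ccl7*, *Ccl20*, *Cxcl1*, *Cxcl2*, *Cxcl5*, *Cxcl10*, *Cxcl16* and *Cx3cl1*, taken by symbol from a table of read counts for 14474 genes, with no threshold on any value. Of these 9 genes, 7 had a row; *Ccl7* and *Cxcl1* had none and were not analysed here. The list was drawn up with results of these libraries known, so the levels, fold changes and calls of the 7 genes are a description of them. The libraries are poly(A) RNA-seq of immortalized mouse keratinocytes on collagen-coated dishes in low-calcium medium at 33 °C and 8% CO2. MKα3− cells (null) lack the integrin α3 subunit, and MKα3+ cells (rescued) are MKα3− cells into which human α3 was put back, so the mouse gene is the same in both lines. Each line received LN332 (laminin-332, the basement membrane ligand of integrin α3β1) at 0.02 mg/mL or the same volume of its glycine and azide vehicle for 16 to 24 h, with 4 libraries in each of the 4 groups. The study describes its in vitro points as experimental replicates, and no source used here says whether the 4 came from separate cultures, so p-values measure the spread between these libraries, which may be technical.

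Chemokines are small secreted proteins that bind G protein-coupled receptors on leukocytes and draw those cells along a gradient, and they are held near their source by heparan sulfate. In skin the keratinocyte is a main source of them. *Cxcl1*, *Cxcl2* and *Cxcl5* encode ligands of the neutrophil receptor CXCR2. *Ccl2* and *Ccl7* encode ligands of the monocyte receptor CCR2. *Ccl20* encodes the ligand of CCR6, which is carried by Langerhans cell precursors and IL-17-producing T cells. *Cxcl10* is an interferon-induced ligand of CXCR3 on activated T cells. *Cxcl16* and *Cx3cl1* (fractalkine) are made as membrane-anchored proteins that are shed by ADAM proteases and bind CXCR6 and CX3CR1. Most of these genes are textbook targets of NF-κB, and many of their mRNAs are short-lived.

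The genes lie on 4 chromosomes of mm10 (GRCm38.p6). *Cxcl5* (chr5:90759298-90761625, plus strand), *Cxcl2* (chr5:90903899-90905938, plus strand) and *Cxcl10* (chr5:92346638-92348889, minus strand) share chromosome 5. *Ccl2* (chr11:82035577-82037452, plus strand) and *Cxcl16* (chr11:70454389-70459984, minus strand) share chromosome 11. *Ccl20* is at chr1:83116766-83119167 and *Cx3cl1* at chr8:94772180-94782427, both on the plus strand. Exons of *Cxcl16* overlap *Zmynd15* on the opposite strand, and because no source used here says whether reads were counted by strand, reads of these 2 genes cannot be told apart there. The other 6 had no overlapping exons.

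Windows of 250 bases before the start were taken from RefSeq (GRCm38.p6) for the 4 genes that matched, *Ccl20*, *Cxcl2*, *Cxcl10* and *Cx3cl1*; *Ccl2*, *Cxcl5* and *Cxcl16* are named only. The windows are shown because NF-κB and interferon control is what these promoters are known for. Those printed are chr1:83116516-83116765 (*Ccl20*, plus strand), chr5:90903649-90903898 (*Cxcl2*, plus strand) and chr5:92348890-92349139 (*Cxcl10*, minus strand). They are read 5′ to 3′ on the strand of the gene, and the capitals mark matches, on either strand, to the NF-κB consensus, the AP-1 motif TGANTCA or the interferon-stimulated response element (GAAA, any 2 bases, GAAA):
Ccl20: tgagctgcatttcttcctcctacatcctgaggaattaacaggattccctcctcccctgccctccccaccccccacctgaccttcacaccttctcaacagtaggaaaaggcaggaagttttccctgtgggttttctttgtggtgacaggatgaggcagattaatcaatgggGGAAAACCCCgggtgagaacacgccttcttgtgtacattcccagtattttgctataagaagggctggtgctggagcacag
Cxcl2: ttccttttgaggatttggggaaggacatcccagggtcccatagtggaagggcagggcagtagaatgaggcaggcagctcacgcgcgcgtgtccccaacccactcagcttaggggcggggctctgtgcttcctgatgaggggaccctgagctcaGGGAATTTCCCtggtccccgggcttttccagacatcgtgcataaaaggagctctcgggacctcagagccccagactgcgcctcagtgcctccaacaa
Cxcl10: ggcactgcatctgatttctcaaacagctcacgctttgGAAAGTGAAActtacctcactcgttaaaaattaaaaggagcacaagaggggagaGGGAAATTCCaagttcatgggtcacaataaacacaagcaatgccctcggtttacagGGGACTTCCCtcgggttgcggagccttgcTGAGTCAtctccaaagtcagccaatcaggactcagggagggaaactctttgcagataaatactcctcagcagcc
*Ccl20* held 1 NF-κB match, at bases 80 to 71 before the start. In the *Cxcl2* window, matches at bases 97 to 88 and, on the other strand, 96 to 87 overlap and form 1 stretch. *Cxcl10* held NF-κB matches at bases 159 to 150 and 103 to 94, the response element at bases 213 to 204 and the AP-1 motif at bases 74 to 68. The *Cx3cl1* window held none of the 3 motifs. Of 32851 promoter windows of this length, 3.9% held the NF-κB consensus, 6.75% the AP-1 motif and 2.98% the response element. A match is a description of the letters and not a binding site.

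Library totals were between 21735708 and 29338370 counts. All 12 keratinocyte markers were in the table, with a summed level between 10001 and 22148 CPM (counts scaled to library size, here with TMM factors), lowest in replicate 1 of every group. Of the 12, 4 were called lower in MKα3+ cells in each medium, and 0 higher in vehicle and 1 in LN332. Of all genes, 7.56% in vehicle and 8.92% in LN332 were called lower, and 10.9% and 11.7% higher. Of 8 leukocyte markers, 7 were in the table (the T-cell gene *Cd3e* was not), and their summed CPM was between 40.7 and 91.5 in MKα3− vehicle libraries, 39.8 and 105.5 in MKα3− LN332, 107 and 379 in MKα3+ vehicle, and 60.2 and 386 in MKα3+ LN332. In vehicle 3 of these 7 markers (*Csf1r*, *Itgam* and *Lyz2*) were called higher in MKα3+ cells, and in LN332 1 (*Csf1r*), where 10.9% and 11.7% of all genes were called higher. Exons of *Csf1r* overlap *Hmgxb3* on the opposite strand and those of *Itgam* overlap *Gm49368* on the same strand, so both are uncertain. The summed markers of fibroblasts (5 of 8 in the table, without *Dcn*, *Lum* and *Thy1*) were at most 40.7 CPM, of melanocytes (2 of 7, without *Mlana*, *Dct*, *Tyr*, *Tyrp1* and *Sox10*) at most 10.6 and of endothelium (4 of 5, without *Emcn*) at most 6.45. In bulk RNA, a larger share of a cell type and more RNA per cell cannot be told apart. Counts of mouse *Itga3* were between 4530 and 8830 in every library and did not separate the lines in vehicle (log2 fold change 0.09, SE 0.15, limma-voom adjusted p = 0.694), and since the transgene is human these counts do not check the labels.

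Per kilobase of exon, *Cxcl5* was the most abundant of the 7 mRNAs in every group, with a mean of 258 CPM per kb in MKα3− vehicle, 193 in MKα3− LN332, 537 in MKα3+ vehicle and 483 in MKα3+ LN332. *Cxcl16* came next, with group means between 78.7 and 91.0 CPM per kb. *Ccl2*, *Cxcl2* and *Cxcl10* had group means between 14.9 and 55.0 CPM per kb. *Ccl20* and *Cx3cl1* were the least abundant, between 1.44 and 8.59 CPM per kb. All values below are TMM-scaled CPM per library, in the order of replicates 1 to 4, with no length correction.

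**Figure D1:**
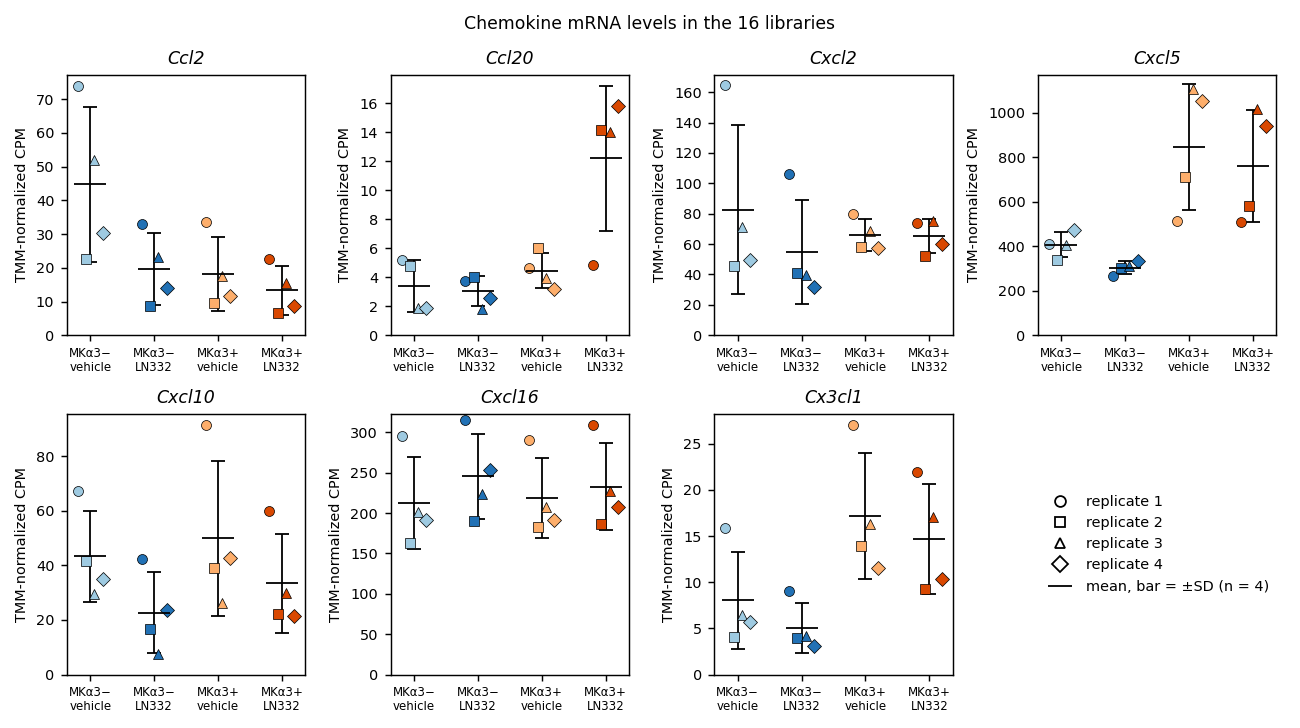
TMM-normalized CPM (linear axis from 0) of 7 chemokine genes in 16 libraries, grouped by line and treatment, with a different marker for each replicate number, and the mean and SD of 4 libraries in black. *Cxcl5* and *Cx3cl1* sat higher in MKα3+ cells, *Ccl20* was above 14 CPM in 3 of 4 MKα3+ LN332 libraries, and replicate 1 was the top library of every group for *Ccl2*, *Cxcl10*, *Cxcl16* and *Cx3cl1*.

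Among the neutrophil chemokines, *Cxcl5* was higher by a factor of about 2 in MKα3+ than in MKα3− cells. MKα3− vehicle libraries had 409.5, 338, 407 and 473 CPM (407 ± 55.0, SD, n = 4), and MKα3− LN332 libraries 266, 303, 313 and 334 (304 ± 28.4). MKα3+ vehicle libraries had 513, 711, 1105 and 1053 CPM (845 ± 282), and MKα3+ LN332 libraries 509, 579, 1014 and 939 (760 ± 253). Every MKα3+ library was above every MKα3− library, while replicates 3 and 4 of MKα3+ cells were well above replicates 1 and 2. The fold change between lines was 1.998 in vehicle (log2 0.998, SE 0.23, limma-voom adjusted p = 0.00355) and 2.39 in LN332 (log2 1.26, SE 0.22, adjusted p = 3.73e-04). With LN332 in MKα3− cells the groups again did not overlap, with every treated library lower, yet the log2 fold change of -0.41 (SE 0.22, adjusted p = 0.415) was not called. Groups did not overlap for 4.95% of all genes in that comparison. In MKα3+ cells the response was -0.15 (SE 0.24), within the spread.

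The leukocyte markers moved with *Cxcl5* across libraries. The 3 libraries with the highest summed markers, MKα3+ LN332 replicate 4 (386 CPM) and MKα3+ vehicle replicates 4 (379) and 3 (361), had 939, 1053 and 1105 CPM of *Cxcl5*. After subtraction of group means the correlation of *Cxcl5* with the marker sum was 0.653 over 16 libraries, against -0.437 to 0.298 for the other 6 chemokines; the points share library and depth, and this is a description. Without those 3 libraries, a setting chosen after seeing the data, the line difference of *Cxcl5* in vehicle was 0.58 on the log2 scale (adjusted p = 0.114) and was no longer called, and that in LN332 was 1.14 (adjusted p = 9.82e-04) and was called. The setting kept only replicates 1 and 2 of MKα3+ vehicle, which had less *Cxcl5* (513 and 711 CPM) than the removed replicates 3 and 4. A smaller difference in vehicle was therefore fixed by the removal, whatever the leukocyte content. Of MKα3+ LN332 the setting removed only replicate 4 (939 CPM) and kept replicate 3 (1014 CPM), so the media did not lose the same number of libraries. The part of leukocyte RNA in the level of *Cxcl5* was not tested.

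**Figure D2:**
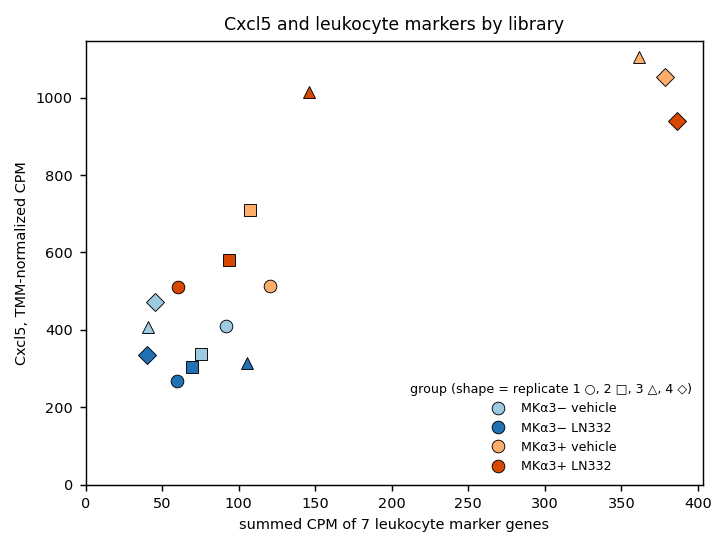
*Cxcl5* (CPM, vertical axis) against the summed CPM of 7 leukocyte marker genes (horizontal axis) in each of 16 libraries, with colour for the group and shape for the replicate number. The 3 libraries above 361 CPM of markers had between 939 and 1105 CPM of *Cxcl5*, and MKα3+ LN332 replicate 3 had 1014 at 146 CPM of markers.

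*Cxcl2* was not called in any comparison with all 16 libraries. Its levels were 164, 45.8, 71.2 and 49.4 CPM in MKα3− vehicle (82.7 ± 55.6, SD, n = 4), 106, 41.2, 39.8 and 31.8 in MKα3− LN332 (54.7 ± 34.3), 80.1, 58.3, 68.4 and 57.6 in MKα3+ vehicle (66.1 ± 10.5), and 73.8, 52.0, 75.3 and 60.4 in MKα3+ LN332 (65.4 ± 11.2). Replicate 1 of each MKα3− group stood far above the other 3 libraries, and all groups overlapped. Its log2 fold changes between lines were -0.13 (SE 0.35) in vehicle and 0.41 (SE 0.36) in LN332, with 95% intervals of -0.87 to 0.61 and -0.35 to 1.17. Without the 4 libraries numbered 1, a setting chosen after seeing the data, the difference in LN332 was 0.72 (limma-voom adjusted p = 0.00577) and was called. The libraries kept had 31.8 to 41.2 CPM in MKα3− and 52.0 to 75.3 CPM in MKα3+ cells. The removed MKα3− LN332 library had 106 CPM, so a larger difference was fixed by the removal. The LN332 response of *Cxcl2* was -0.56 (SE 0.36) in MKα3− cells and -0.02 (SE 0.35) in MKα3+ cells.

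*Ccl2*, which draws monocytes, was higher in MKα3− vehicle cells than in the other groups by its mean. Its levels were 73.9, 22.7, 52.0 and 30.2 CPM in MKα3− vehicle (44.7 ± 23.1, SD, n = 4) and 33.0, 8.69, 23.1 and 14.1 in MKα3− LN332 (19.7 ± 10.7). They were 33.6, 9.50, 17.6 and 11.6 CPM in MKα3+ vehicle (18.1 ± 10.9) and 22.5, 6.62, 15.4 and 8.69 in MKα3+ LN332 (13.3 ± 7.18). The libraries kept a single order in all 4 groups, replicate 1 over 3 over 4 over 2, and the groups overlapped. *Ccl2* was lower in the LN332 library than in the vehicle library of each replicate number in both lines. Of the variance of its log2 CPM, 47.0% lay between groups, 52.2% between replicate numbers and 0.803% in the rest. In vehicle *Ccl2* was 2.499-fold lower in MKα3+ cells (log2 -1.32, SE 0.46, limma-voom adjusted p = 0.0378). This call was lost with edgeR (adjusted p = 0.0512) and DESeq2 (0.0581). It was lost without the 3 libraries of highest leukocyte markers (log2 -1.15, limma-voom adjusted p = 0.241), which keeps only replicates 1 and 2 of MKα3+ vehicle. It was also lost without any one of MKα3− vehicle replicates 1 (limma-voom adjusted p = 0.114) or 3 (0.0931) or MKα3+ vehicle replicates 2 (0.119), 3 (0.0677) or 4 (0.109). In LN332 the difference was -0.56 (SE 0.52, adjusted p = 0.446). With the replicate block, limma-voom called both differences, -1.33 in vehicle (adjusted p = 7.62e-09) and -0.56 in LN332 (adjusted p = 1.14e-04). The labels do not tie the replicate numbers to a shared culture or day.

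*Ccl20*, the CCR6 ligand, was low in 3 groups and higher in MKα3+ cells with LN332. It had 5.16, 4.78, 1.88 and 1.87 CPM in MKα3− vehicle (3.42 ± 1.80, SD, n = 4), 3.72, 4.03, 1.83 and 2.59 in MKα3− LN332 (3.04 ± 1.02), 4.62, 6.01, 3.96 and 3.17 in MKα3+ vehicle (4.44 ± 1.21) and 4.82, 14.2, 14.05 and 15.8 in MKα3+ LN332 (12.2 ± 4.99). These rest on 51 to 422 counts per library. Replicate 1 of the last group lay among the vehicle libraries, and the other 3 were above every library of the other groups. In LN332 *Ccl20* was 3.81-fold higher in MKα3+ than in MKα3− cells (log2 1.93, SE 0.44, limma-voom adjusted p = 0.00267), and these groups did not overlap. In vehicle the difference was 0.49 (SE 0.47, adjusted p = 0.475).

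The LN332 response of *Ccl20* in MKα3+ cells was 1.37 on the log2 scale (SE 0.39, limma-voom adjusted p = 0.170) and was not called. The call turned on replicate 1: without the MKα3+ LN332 library of that number the response was 1.77 (adjusted p = 0.0385), and without all 4 libraries numbered 1 it was 1.80 (adjusted p = 0.0191). That MKα3+ LN332 library was the lowest of its group (4.82 CPM), so a larger response was fixed by either removal. The second setting was chosen after seeing the data. DESeq2 called the *Ccl20* response (1.47, adjusted p = 0.0172), as did limma-voom with library quality weights (1.74, adjusted p = 4.70e-04), and edgeR did not. Since the numbers paired the MKα3+ libraries, the fit with the replicate block is given as well, 1.32 (adjusted p = 0.0698). In MKα3− cells the response was -0.07 (SE 0.51). The difference between the 2 responses was 1.44 (SE 0.64, 95% interval 0.09 to 2.79, limma-voom unadjusted p = 0.0383), with an adjusted p of 0.9999 over all genes, so a difference between the lines in this response was not shown.

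*Cxcl10*, the interferon-induced T-cell chemokine, overlapped in all comparisons. Its levels were 67.2, 41.5, 29.5 and 35.0 CPM in MKα3− vehicle (43.3 ± 16.7, SD, n = 4), 42.4, 16.7, 7.54 and 23.8 in MKα3− LN332 (22.6 ± 14.8), 91.3, 39.1, 26.4 and 42.7 in MKα3+ vehicle (49.8 ± 28.5), and 60.0, 22.3, 29.7 and 21.5 in MKα3+ LN332 (33.4 ± 18.1). Replicate 1 was the highest library of every group. In MKα3− cells the LN332 library of each replicate number was below the vehicle library, and in MKα3+ cells each but replicate 3 was. Between lines the log2 fold change was 0.12 in vehicle (95% interval -0.77 to 1.02) and 0.71 in LN332 (-0.30 to 1.72). The LN332 response was -1.15 (SE 0.47, limma-voom adjusted p = 0.285) in MKα3− cells and -0.56 (SE 0.44, adjusted p = 0.800) in MKα3+ cells, and neither was called.

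Of the membrane-anchored chemokines, *Cx3cl1* was higher in MKα3+ cells and *Cxcl16* was not called in any comparison. *Cx3cl1* had 15.8, 4.07, 6.48 and 5.70 CPM in MKα3− vehicle (8.02 ± 5.30, SD, n = 4), 9.08, 3.96, 4.16 and 3.13 in MKα3− LN332 (5.08 ± 2.70), 27.0, 13.9, 16.3 and 11.6 in MKα3+ vehicle (17.2 ± 6.82), and 21.9, 9.295, 17.1 and 10.4 in MKα3+ LN332 (14.7 ± 5.94). Within each replicate number both MKα3+ libraries were above both MKα3− libraries, and across numbers the groups overlapped in vehicle, because MKα3− replicate 1 exceeded MKα3+ replicates 2 and 4, but not in LN332. The line difference was 2.34-fold in vehicle (log2 1.23, SE 0.38, limma-voom adjusted p = 0.0221) and 2.92-fold in LN332 (log2 1.55, SE 0.44, adjusted p = 0.0125). The vehicle call was lost with edgeR (adjusted p = 0.0570) and DESeq2 (0.0651), and without any one of MKα3− vehicle replicates 2 (0.0820), 3 (0.0542) or 4 (0.0593) or MKα3+ vehicle replicate 1 (0.0673). With LN332, *Cx3cl1* was -0.56 (SE 0.47) in MKα3− cells and -0.25 (SE 0.34) in MKα3+ cells.

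*Cxcl16* had 295, 162, 201 and 191 CPM in MKα3− vehicle (212 ± 57.4, SD, n = 4), 315, 191, 224 and 253.5 in MKα3− LN332 (246 ± 52.8), 291, 182, 208 and 192 in MKα3+ vehicle (218 ± 49.6) and 309, 186, 227 and 207.5 in MKα3+ LN332 (232 ± 53.7). Replicate 1 was the highest and replicate 2 the lowest in every group. Its line differences were 0.05 in vehicle (95% interval -0.37 to 0.47) and -0.08 in LN332 (-0.51 to 0.34), and its LN332 responses 0.22 in MKα3− cells (-0.20 to 0.65) and 0.09 in MKα3+ cells (-0.33 to 0.51).

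Taken by comparison, called genes are those with a Benjamini-Hochberg adjusted p below 0.05 over all 14474 genes and a log2 fold change above 0.5 in size, from limma-voom. In vehicle, *Cxcl5* and *Cx3cl1* were called higher and *Ccl2* lower in MKα3+ cells, 3 of 7 chemokines, where 18.5% of all genes were called (10.9% higher, 7.56% lower). The median log2 fold change was 0.12 for the 7 chemokines and 0.01 for all genes. *Cxcl5* alone had groups that did not overlap, against 32.9% of all genes. In LN332, *Ccl20*, *Cxcl5* and *Cx3cl1* were called higher and none lower, 3 of 7 where 20.6% of all genes were called (11.7% higher, 8.92% lower), with medians of 0.71 and 0.01. The groups did not overlap for any of the 3, against 26.5% of all genes, and these 3 calls held in all 29 alternative settings tried.

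In the fit without the replicate block, none of the 7 was called in response to LN332. In MKα3− cells 0 of 7 were called by that limma-voom fit, edgeR and DESeq2, with 2 (*Ccl2* and *Cxcl10*) at an unadjusted p under 0.05, where 0.304% of all genes were called. *Ccl2* had the largest size of response there, -1.20 (SE 0.45, adjusted p = 0.250), and 6 of 7 log2 fold changes were below 0 (median -0.56, all genes -0.01). With the replicate block 3 of 7 (*Ccl2*, *Cxcl10* and *Cx3cl1*) were called lower in MKα3− cells, where 259 of 14474 genes were called. Deviations of same-numbered libraries of that line correlated at r of 0.192, 0.507, 0.300 and -0.0118 for replicates 1 to 4. Because replicate 4 was not above 0.1, they were not treated as paired. In MKα3+ cells 0 of 7 were called by limma-voom and edgeR and 1 (*Ccl20*) by DESeq2, where limma-voom called 0.187% of all genes. With the replicate block that share was 1.51% and still 0 of 7 were called; *Ccl2* then had an adjusted p of 0.0173 at -0.43, under the fold minimum. The 2 comparisons between lines and the 2 responses share libraries, so their values are set side by side and not correlated. Averaged over both lines 0 of 7 were called by all 3 tools, with 2 at an unadjusted p under 0.05, where 1.35% of all genes were called; *Cxcl10* (-0.86, SE 0.32, adjusted p = 0.139) and *Ccl2* (-0.82, SE 0.35, adjusted p = 0.198) had the lowest values. In that average *Cxcl10* was called without MKα3− LN332 replicate 1 (-1.07, adjusted p = 0.0488) and *Ccl20* without MKα3+ LN332 replicate 1 (0.85, adjusted p = 0.0425). The library left out was the highest of its group for *Cxcl10* and the lowest for *Ccl20*, so a larger response was fixed by each removal. The difference between the responses was called for 0 of 7 chemokines and 0 of 14474 genes by limma-voom, edgeR and DESeq2, with 1 and 164 at an unadjusted p under 0.05 in limma-voom.

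**Figure D3:**
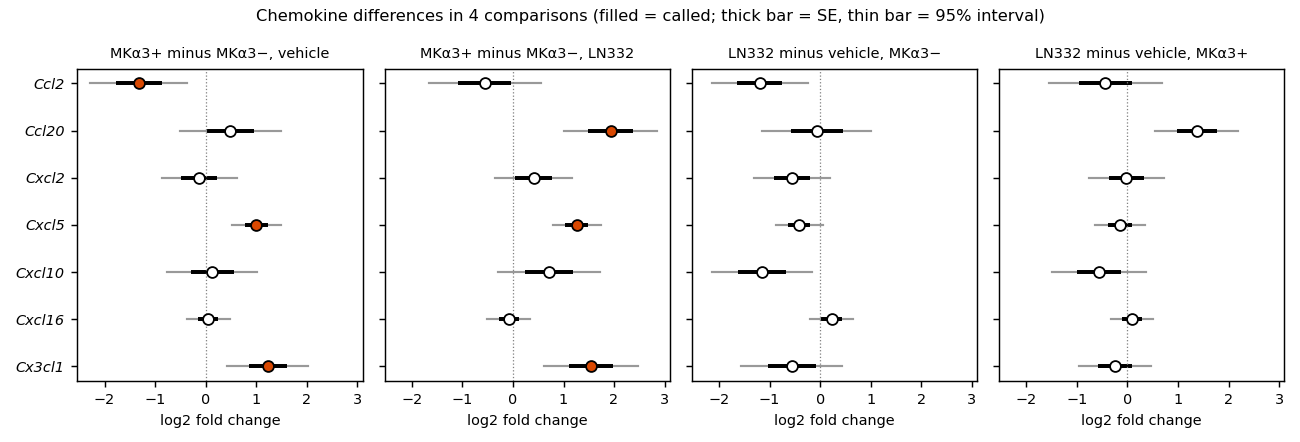
Log2 fold change (horizontal axis) of the 7 chemokines in 4 comparisons, with the SE as a thick bar and the 95% interval as a thin bar; filled points were called by limma-voom without the replicate block. *Ccl2* was called only in vehicle (-1.32), *Ccl20* only in LN332 (1.93), *Cxcl5* and *Cx3cl1* in both comparisons between lines, and none in the 2 responses to LN332.

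The replicate number was a large source of variation for these genes. It accounted for 87.4% of the variance of *Cxcl16*, 59.1% of *Cxcl2*, 52.2% of *Ccl2*, 51.9% of *Cxcl10* and 34.2% of *Cx3cl1*, and for 15.9% of *Cxcl5* and 9.69% of *Ccl20*, where the median of all genes was 21.2%. The share between groups was largest for *Cxcl5* (76.1%), *Ccl20* (65.0%) and *Cx3cl1* (61.8%) and smallest for *Cxcl16* (8.47%), with a median of 43.9% over all genes. Deviations from the group mean ran together for *Cxcl2* and *Cx3cl1* (r = 0.919), *Ccl2* and *Cxcl16* (0.908) and *Cxcl16* and *Cx3cl1* (0.897), and ran apart for *Cxcl5* and *Cxcl10* (-0.526). These are descriptions over 16 libraries that share depth and replicate number. The labels do not say what a replicate number stands for. Without the 4 libraries numbered 1, the line differences in vehicle were -1.40 for *Ccl2* (limma-voom adjusted p = 0.0135), 1.22 for *Cxcl5* (adjusted p = 6.48e-04) and 1.37 for *Cx3cl1* (adjusted p = 9.02e-04), and in LN332 2.44 for *Ccl20* (adjusted p = 8.00e-05), 1.37 for *Cxcl5* (adjusted p = 1.82e-04), 1.65 for *Cx3cl1* (adjusted p = 5.47e-04) and 0.72 for *Cxcl2* (adjusted p = 0.00577). *Cxcl2* in LN332 was the line difference that became called in this setting, which was chosen after seeing the data.

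**Figure D4:**
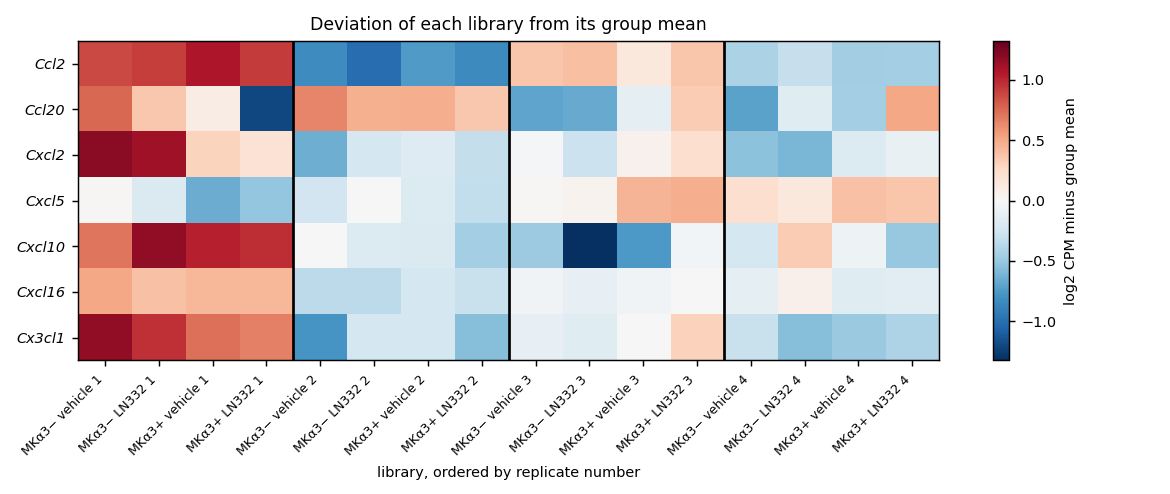
Log2 CPM of each library minus its group mean (colour, red higher and blue lower) for 7 chemokines (rows) in 16 libraries ordered by replicate number (columns, black lines between numbers). All 4 libraries numbered 1 were above their group means for *Ccl2*, *Cxcl2*, *Cxcl10*, *Cxcl16* and *Cx3cl1*, while the *Cxcl5* deviations of MKα3+ replicate 1 were below 0.

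Over the 16 libraries, the 3 genes with the most similar pattern to each chemokine, by Pearson r of log2 CPM, were taken from 11750 genes with a mean of at least 1 log2 CPM. For *Cxcl2* they were *Nfkbia*, the NF-κB inhibitor (r = 0.933), *Acy1* (0.913) and *Zfp599* (0.909). For *Cxcl5* they were *Ntn4*, a laminin-related netrin (0.942), *Axl*, a receptor tyrosine kinase (0.942), and *Nptxr* (0.937). *Ccl2* was close to *Mab21l3* (0.928) and *Ikbke*, a kinase of the IκB kinase family (0.926). *Ccl20* was closest to *Ptcd3* (0.894), *Slc30a1*, a zinc exporter (0.893), and *Zfp568* (0.878). *Cxcl10* was closest to *Cxcl9*, another CXCR3 ligand (0.885), *Mcee* (0.868) and *Zfp94* (0.857). *Cxcl16* was closest to *Isg20*, an interferon-stimulated exonuclease (0.928), *Thyn1* (0.928) and *Dnajb1* (0.923). *Cx3cl1* was closest to *H2-DMb1*, an antigen-loading chain (0.959), *Akr1c13* (0.952) and *Tcn2* (0.944). These are descriptions over libraries that share depth and replicate number.

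Of 31 other chemokine genes, 15 were in the table; in vehicle 5 were called higher and 2 lower in MKα3+ cells, and in LN332 4 higher and 2 lower, where 18.5% and 20.6% of all genes were called. Their median log2 fold change was 0.70 in vehicle and 1.02 in LN332, and that of all genes 0.01 in both. *Cxcl3*, a further CXCR2 ligand, had 9.23, 7.13, 7.57 and 11.3 CPM in MKα3− LN332 and 11.5, 16.0, 34.3 and 32.4 in MKα3+ LN332, a log2 difference of 1.32 (SE 0.35, limma-voom adjusted p = 0.00845). *Ccl9* (2.81, SE 0.92, adjusted p = 0.0293), *Ccl6* (1.57, SE 0.36, adjusted p = 0.00322) and *Ccl28* (1.56, SE 0.41, adjusted p = 0.00910) were higher in vehicle. *Ccl9* rests on 2 to 26 counts per MKα3− vehicle library. *Ccl9* and *Ccl6* are myeloid chemokines. *Ccl9* had 4.47 and 4.53 CPM in MKα3+ vehicle replicates 3 and 4, the libraries of that group with the highest leukocyte markers, against 1.38 and 0.842 in replicates 1 and 2. The part of leukocyte RNA in these levels was not tested. *Ccl25* was also higher (1.84 in vehicle), but its exons overlap *Elavl1* on the opposite strand, which was higher too (0.80), so both are uncertain. *Ccl27a*, called higher in vehicle (1.02) and in LN332 (0.82), is uncertain too, since its exons overlap *Il11ra1* on the opposite strand. *Ccl8*, which acts on monocytes, was lower in vehicle (-1.47, SE 0.43, adjusted p = 0.0172) and in LN332 (-1.91, SE 0.50, adjusted p = 0.00748), and *Mif* was lower in both (-0.56 and -0.70).

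**Figure D5:**
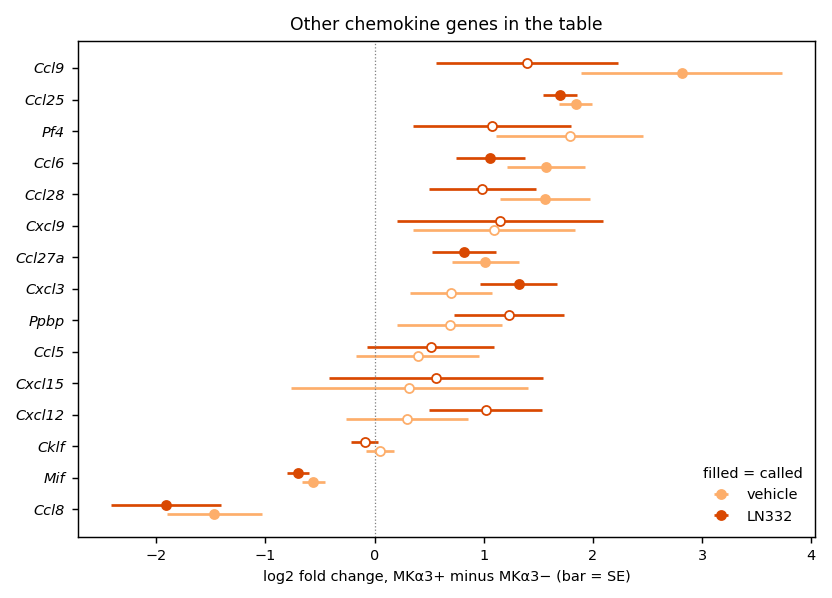
Log2 fold change of MKα3+ over MKα3− cells (horizontal axis, bar = SE) for 15 other chemokine genes in vehicle and in LN332; filled points were called by limma-voom. *Ccl9* (2.81 in vehicle) was at the top and *Ccl8* (-1.91 in LN332) at the bottom. *Ccl25* shares exon positions with *Elavl1*, and *Ccl27a* with *Il11ra1*.

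*Ppbp*, which encodes the precursor of platelet basic protein and of another CXCR2 ligand, had 78.8, 114, 178 and 201 CPM in MKα3+ vehicle and 228, 280.1, 463 and 468 in MKα3+ LN332. All 4 treated libraries exceeded all 4 vehicle libraries; groups did not overlap for 9.66% of all genes in that comparison. The response was 1.36 (SE 0.50, limma-voom adjusted p = 0.343) without the replicate block and 1.37 (adjusted p = 0.00568) with it. *Cxcl3* had 8.62, 9.54, 15.7 and 18.6 CPM in MKα3+ vehicle and was not called in that response with or without the block.

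Of 23 chemokine receptor and scavenger genes 4 were in the table, *Ackr3*, *Cx3cr1*, *Cxcr4* and *Cxcr5*. *Cxcr4* was called higher in MKα3+ vehicle cells (2.07, SE 0.66, limma-voom adjusted p = 0.0253), with 0.619, 0.842, 1.80 and 2.09 CPM against 0.281, 0.441, 0.390 and 0.104 in MKα3− vehicle. Every MKα3− vehicle value was below the 0.5 CPM of the study's filter, so the fold change rests on levels near the floor. The 2 highest *Cxcr4* levels in MKα3+ vehicle were again replicates 3 and 4.

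Of 13 measured inflammatory cytokines, 7 were called higher and 1 lower in MKα3+ vehicle cells, and 5 higher and 1 lower in LN332, where 10.9% and 11.7% of all genes were called higher and 7.56% and 8.92% lower. The leukocyte markers *Csf1r*, *Itgam* (both uncertain, above) and *Lyz2* were called higher in the same vehicle comparison, and their part in these counts was not tested. *Csf1*, the macrophage growth factor, had between 68.8 and 123 CPM in MKα3− vehicle and between 238 and 282 in MKα3+ vehicle (log2 1.54, SE 0.15, limma-voom adjusted p = 4.98e-07). The epithelial alarmins *Tslp* (2.29, SE 0.44, adjusted p = 8.22e-04) and *Il33* (2.04, SE 0.48, adjusted p = 0.00429) were higher too, on 2 to 4 counts of *Tslp* per MKα3− vehicle library. *Il1b* was higher in vehicle (1.10, adjusted p = 0.0320) and *Il23a* in LN332 (1.76, adjusted p = 3.00e-04), and the death ligand *Tnfsf10* was lower in both (-1.18 and -1.13). Averaged over lines, *Tslp* (1.15, adjusted p = 0.0326) and *Il1a* (0.54, adjusted p = 0.0172, exons overlapping *Gm14023*) rose with LN332 and *Tnfsf10* fell by 0.84 on the log2 scale (adjusted p = 0.0351).

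Among genes upstream of chemokine transcription, the share called between lines is to be read against the 18.5% of all genes in vehicle and 20.6% in LN332. Of 20 NF-κB subunits and feedback genes 2 were called in each medium: *Nfkbiz* was higher in vehicle (0.55, SE 0.20, limma-voom adjusted p = 0.0469) and *Relb* lower (-0.79, SE 0.18, adjusted p = 0.00346), and the same 2 genes were called in LN332 (0.61 and -0.70). Of 10 interferon factors that act on *Cxcl10*, *Socs1*, a feedback inhibitor, was lower in vehicle (-1.07, adjusted p = 8.36e-04) and LN332 (-1.82, adjusted p = 6.41e-06), as was *Irf7* (-0.74 and -0.93). Of the 10, 2 were lower in vehicle and 3 in LN332, and 0 were higher (limma-voom). Of 26 cytokine and Toll-like receptors and adaptors, 4 were higher and 2 lower in vehicle, and 3 higher and 2 lower in LN332. *Tlr4* (0.63 and 0.79), *Tnfrsf1b* (0.64 and 0.53) and *Tlr3* (0.73 and 0.92, exons overlapping *Gm45542*) were higher in both media and *Irak3* in vehicle (1.96, exons overlapping *Gm47009*). *Ifngr1* was lower in vehicle (-0.55) and *Tnfrsf1a* in LN332 (-0.57), and *Traf3ip2*, the IL-17 receptor adaptor, was lower in both (-0.93 and -1.10; exons overlapping *E130307A14Rik*).

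Downstream, 2 of 10 mRNA decay and stability genes were higher in each medium, *Elavl1* (uncertain, above) and *Zfp36l2* (0.72 and 0.52, exons overlapping *AC132455.1*). Of 12 shedding and trimming proteases 0 were called in vehicle by limma-voom, and in LN332 *Mmp9* (1.81, SE 0.47, limma-voom adjusted p = 0.00692) and *Adam8* (0.74, SE 0.15, adjusted p = 0.00142, exons overlapping *Gm16201*) were higher. Of 17 heparan sulfate genes, *Sulf1*, which trims sulfate from the chains that hold chemokines, was higher in vehicle (2.58, SE 0.23, adjusted p = 2.03e-07) and LN332 (2.99, SE 0.23, adjusted p = 3.67e-08), as was the syndecan *Sdc1* (0.55 and 0.69), and the glypican *Gpc4* was lower (-0.63 and -0.51). Over the 127 measured genes of the 9 lists, 22 were called higher and 9 lower between lines in vehicle and 20 and 10 in LN332, where 18.5% and 20.6% of all genes were called. Without the replicate block 0 of the 127 were called in the LN332 response of either line by limma-voom, where 0.304% (MKα3−) and 0.187% (MKα3+) of all genes were called. With it 8 were called in the paired MKα3+ libraries, where 1.51% of all genes were called.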

How the data were processed

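RNA-seq was deposited for 16 libraries, 4 in each of 4 groups given by the labels (line and treatment). The authors aligned reads to mm10 (Rsubread), ran featureCounts with the Entrez annotation it ships, and deposited unnormalized counts of 14474 genes; per the labels, edgeR, limma and bcl2fastq 2.20 were also used. The strand setting is not given in the sources used here. The filter named in the study's methods (above 0.5 CPM in 3 or more libraries) removed 0 genes. Depth was 21735708 to 29338370 counts, which for *Ccl20* gave 51 to 422 counts per library. No replicate pair agreed within sampling noise (smallest chi-square per degree of freedom, 5.51).

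TMM factors came from edgeR 4.0.16, and voom weights, contrasts and empirical Bayes statistics from limma 3.58.1 in R 4.3.3, with all 16 libraries in one fit with a coefficient per group. A gene was called at an adjusted p below 0.05 (Benjamini-Hochberg over all genes) and a log2 fold change above 0.5 in size. The scripts were tested on simulated data. The members, gene lists and tests were chosen with earlier results of these data known. Named genes were all members in the table, at most 4 called genes per direction of each list and comparison, and the 3 genes of highest Pearson r with each member; *Ppbp*, *Cxcl3* in the LN332 response and *Cxcl15* were named after their values were seen. Some genes that this rule names are not reported here. Exon lengths and overlaps are those of the mm10 annotation.

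Deviations of same-numbered libraries correlated above 0.1 in every pair of MKα3+ vehicle and LN332 libraries (0.202 to 0.620), which were therefore treated as paired by the data. In the other comparisons the lowest r was between -0.0469 and 0.0913. The alternatives comprised DESeq2 1.42.0, the quasi-likelihood test of edgeR, DESeq2 size factors and library-size scaling in voom, no filter and a filter of at least 10 counts in every library, the replicate block, quality weights, fits of only the groups compared, other fold minimums, each library left out, and 2 settings chosen after seeing the data (without the 3 libraries of highest summed leukocyte markers, and without the 4 libraries numbered 1).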

Additional observations from a re-analysis of the deposited data

Results flagged for a closer look

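In 28 sets of 4 libraries (7 chemokines in 4 groups) the highest or lowest library was compared with the rest by its gap to the nearest library over the range of the group, against Dixon's 95% critical value of 0.829. Chance gives about 1.4 such libraries in 28 sets, and 2 were found. *Cxcl2* in MKα3− LN332 replicate 1 was at 105.8 CPM, where the other 3 libraries were between 31.8 and 41.2 CPM. *Ccl20* in MKα3+ LN332 replicate 1 was at 4.82 CPM, where the other 3 were between 14.05 and 15.8 CPM.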

How the results depend on the processing

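The line differences of *Ccl20*, *Cxcl5* and *Cx3cl1* in LN332 were called in all 29 alternatives. Over 42 chemokine results (7 genes in 6 comparisons) and 1204 alternative values, 1142 kept their direction and side of the threshold, 16 were no longer called, 19 became called and 27 changed sign. Where a value below differs, the cause was not tested unless fewer libraries or genes or another fold minimum entered by construction. No filter was the same table, since the filter removed 0 genes, and a fit of only the groups compared was not run for the average and the difference of responses. At 51 to 422 counts, the SE of *Ccl20* was up to 0.51.

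In vehicle the number of chemokines called was 1 with edgeR, 1 with DESeq2 and 1 without the 3 libraries of highest summed leukocyte markers, against 3. Genes called were 2676, with 4115 under no fold minimum and 1362 at a log2 fold change over 1. *Cxcl10* was -0.022 with quality weights and *Cxcl2* 0.17 without the libraries numbered 1. In LN332, genes called were 2987, with 4654 under no fold minimum and 1345 at a log2 fold change over 1.

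For LN332 in MKα3− cells, genes called were 44 (35 higher, 9 lower), against 165 with DESeq2, 74 with library-size scaling (24 higher, 50 lower), 123 with quality weights, 1 with only the groups compared, 6 at a log2 fold change over 1, 1 without the libraries of highest leukocyte markers and 163 without the libraries numbered 1. *Ccl20* was 0.23 with quality weights and 0.057 without the libraries numbered 1.

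For LN332 in MKα3+ cells, genes called were 27 (25 higher, 2 lower), against 4 with edgeR, 121 with DESeq2, 3 with library-size scaling (2 higher, 1 lower), 454 with quality weights (241 higher, 213 lower), 106 with only the groups compared, 5 at a log2 fold change over 1, 0 without the libraries of highest leukocyte markers and 87 without the libraries numbered 1. Chemokines called were 1 with DESeq2, 1 with quality weights and 1 without the libraries numbered 1. *Cxcl2* was 0.025 with quality weights and 0.014 without the libraries numbered 1, and *Cxcl5* 0.14 without the libraries of highest leukocyte markers.

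Averaged over lines, genes called were 196 (133 higher, 63 lower), against 464 with quality weights (221 higher, 243 lower), 637 under no fold minimum, 13 at a log2 fold change over 1, 28 without the libraries of highest leukocyte markers and 347 without the libraries numbered 1, and chemokines called were 3 with quality weights and 2 without the libraries numbered 1.

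The replicate block, outside the paired MKα3+ comparison, uses numbers that the labels do not tie to a shared culture or day; 13 of 16 libraries correlated best with a library of their own number. With the replicate block, genes called were 3056 between lines in vehicle, 3393 in LN332, 259 for LN332 in MKα3− cells, 218 in MKα3+ cells and 363 averaged. For LN332 in MKα3− cells it called 3 of the 127 genes of the related lists (1 higher, 2 lower). In vehicle it changed no chemokine call (3 of 7). In LN332 it called 5, adding *Ccl2* (-0.56, limma-voom adjusted p = 1.14e-04) and *Cxcl10* (0.63, adjusted p = 0.0185). For LN332 in MKα3− cells it called 3, *Ccl2* (-1.19, adjusted p = 3.56e-06), *Cxcl10* (-1.08, adjusted p = 0.00894) and *Cx3cl1* (-0.62, adjusted p = 0.0435). Averaged, it called 2, *Ccl2* (-0.81, adjusted p = 1.02e-05) and *Cxcl10* (-0.83, adjusted p = 0.00140).

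With each library left out in turn, genes called were 2345 to 2754 between lines in vehicle, 2590 to 3338 in LN332, 1 (without MKα3− vehicle replicate 3) to 150 (without MKα3− LN332 replicate 1) for LN332 in MKα3− cells, 0 (on leaving out either replicate 2 or 4 of MKα3+ vehicle, or either 3 or 4 of MKα3+ LN332) to 47 (without MKα3− LN332 replicate 1) in MKα3+ cells, 114 to 321 averaged and 0 to 0 for the difference. Chemokines called were 1 (without MKα3− vehicle replicate 3) to 3 in vehicle, 3 to 3 in LN332, 0 to 0 for LN332 in MKα3− cells, 0 to 1 (without MKα3+ LN332 replicate 1) in MKα3+ cells, 0 to 1 averaged (1 without replicate 1 of either LN332 group) and 0 to 0 for the difference. Values that changed sign were, in vehicle, *Cxcl2* (-0.35 to 0.27), *Cxcl10* (-0.22 to 0.38) and *Cxcl16* (-0.10 to 0.22), and in LN332 *Cxcl16* (-0.23 to 0.041). For LN332 in MKα3− cells *Ccl20* ranged from -0.30 to 0.18. In MKα3+ cells *Cxcl2* ranged from -0.095 to 0.082, *Cxcl5* from -0.37 to 0.021, *Cxcl16* from -0.054 to 0.24 and *Cx3cl1* from -0.46 to 0.0042. For the difference of responses *Cxcl16* ranged from -0.30 to 0.013 and *Cx3cl1* from -0.074 to 0.64. None of these was called.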

Other observations

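*Cxcl15*, a CXC chemokine known from lung epithelium, split the libraries without following the groups. It had 21.7 to 43.0 CPM in 8 libraries, MKα3− vehicle replicates 3 and 4, MKα3− LN332 replicates 1 and 4, MKα3+ vehicle replicates 3 and 4 and MKα3+ LN332 replicates 1 and 4, and 1.79 to 8.41 CPM in the other 8. Its line difference was 0.32 in vehicle and 0.56 in LN332 on the log2 scale, neither called by limma-voom. It was picked out after its values were seen.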
